A study of Mus musculus with 37 samples.

Results

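The lungs of A/J mice were compared across a single day of late gestation, E19.5 against E18.5, when the distal saccules thin and fill with surfactant in the days before this strain is born. The comparison used 6 of the 37 arrays of the series, 3 of A/J E19.5 lung and 3 of A/J E18.5 lung, chosen by the strain and time in the sample labels. The other arrays cover A/J from E15.5 to the day of birth (PN0) and C57BL/6J (B6), a strain born a day earlier. They entered through the shared estimate of spread and the choice of a gene's probe set. They also gave the course over age, the neighbouring A/J steps and the matching step of B6, E18.5 against E17.5. All groups were mice of inbred strains, and the labels give no treatment and no engineered allele. Each replicate was a litter, for which RNA of the right lungs of 3 male fetuses was pooled, so the spread measured is that between litters. The whole lung was used, and a lower signal from fewer cells of a type cannot be told apart from a lower signal from less RNA per cell.

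In the saccular stage, the epithelium of the future air spaces differentiates into flat type I cells, across which gas is exchanged, and cuboidal type II cells, which make and store surfactant. Surfactant is a film of phospholipid and surfactant proteins that lowers surface tension and keeps the air spaces open at the start of breathing. At the same time the capillaries come to lie against the thinning epithelium, fetal lung liquid begins to be absorbed, proliferation slows, and secreted host defense proteins appear in the airways.

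Expression was measured on the Affymetrix Mouse Gene 1.0 ST array, and values are log2 RMA values, so that a difference of 1 is a doubling. A limma model tested 21789 probe sets that carry exactly 1 gene symbol, and a probe set was called at a Benjamini-Hochberg adjusted p under 0.05. Of these, 993 (4.56%) were higher at E19.5 and 5172 (23.7%) were lower. The excess of lower calls moved with the level of the arrays. The median over the tested probe sets lay between 6.95 and 7.0 on the E19.5 arrays and between 7.07 and 7.13 on the E18.5 arrays, against 6.86 to 6.98 on all other arrays. After each array was centred on its median, 2476 probe sets (11.4%) were higher and 2034 (9.33%) lower. All 993 probe sets called higher as deposited were also called higher on centred arrays, and all 2034 called lower on centred arrays were also called lower as deposited. No probe set was called in opposite directions. The median difference over all tested probe sets was -0.10 as deposited and 0.03 after centring, so each group of genes below is given on both scales. Large changes were less affected. With a fold of at least 1.5 in addition, 215 probe sets were higher and 676 lower, and 427 were higher and 368 lower after centring. The values of the 3 litters at E19.5 did not overlap those of the 3 litters at E18.5 for 35% of all tested probe sets and for 88.3% of those called.

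The arrays carried the defining signals of lung. Sftpc, a surfactant protein of type II cells, measured 13.67 or more on all 6 arrays, Ager, the receptor most abundant on type I cells, 12.57 or more, and Nkx2-1, the lung epithelial transcription factor, 9.34 or more. Replicates correlated at r = 0.993 to 0.995 within E19.5 and at 0.992 to 0.993 within E18.5. Markers of neighbouring tissue were uneven between arrays. The mean of 9 liver markers was 5.49, 6.77 and 5.65 at E19.5 and 5.68, 6.06 and 5.45 at E18.5, with albumin (Alb) at 6.40, 9.67 and 6.82 at E19.5 and 6.18, 7.57 and 6.24 at E18.5. The mean of 12 markers of esophagus and upper airway was 5.57, 6.90 and 5.66 at E19.5 and 6.72, 6.53 and 6.37 at E18.5. The squamous keratin Krt13 measured 5.70, 9.13 and 5.41 at E19.5 and 8.63, 8.46 and 8.10 at E18.5. Replicate 2 of E19.5 therefore stood apart, with the highest liver and esophagus markers of the 6 arrays. It also had the highest neutrophil, macrophage and defense values and the lowest mitosis values. Without it, 577 probe sets were called higher, and its effect is given beside the secretory, defense, blood cell and mitosis groups. Without it, 6 of the 12 esophagus markers were lower at E19.5, against 1 with it.

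**Figure D1:**
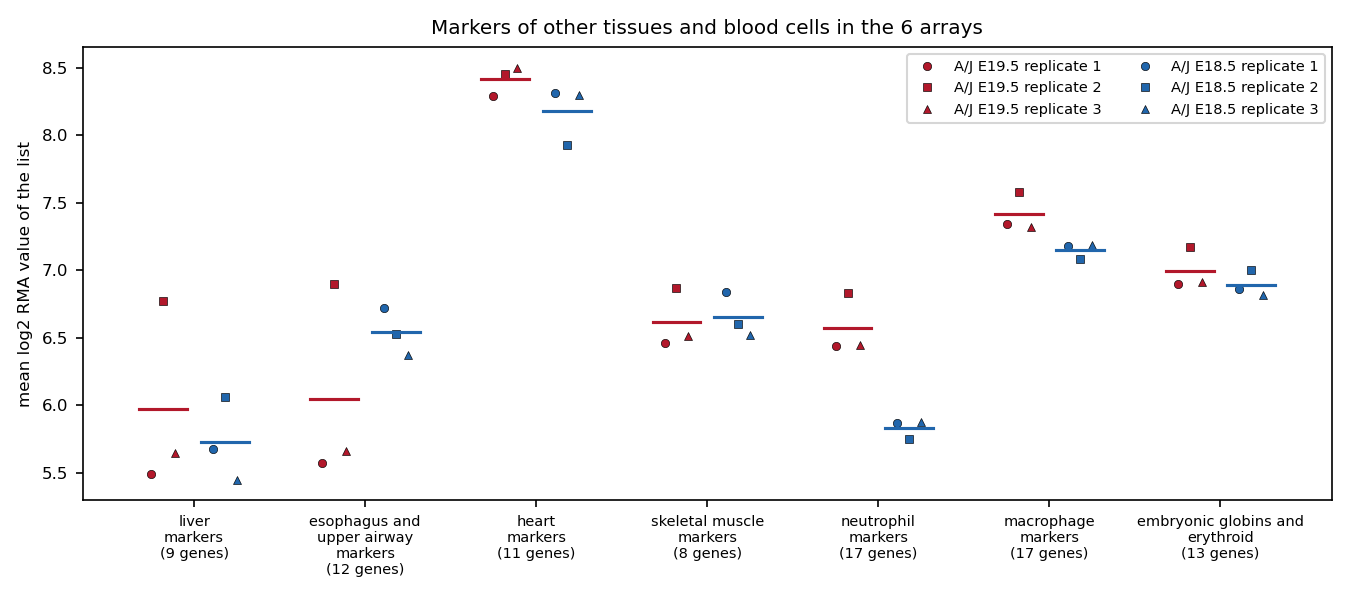
Mean log2 RMA value of marker lists of other tissues and of blood cells on each array (points; circles, squares and triangles are replicates 1, 2 and 3) with the group mean (bars), A/J E19.5 in red and A/J E18.5 in blue. Replicate 2 of E19.5 is the highest of the 6 arrays for liver (6.77) and esophagus (6.90), whereas the 3 neutrophil values at E19.5 (6.44 to 6.83) all lie above those at E18.5 (5.75 to 5.88).

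The 15 genes with the largest rise included 4 of the innate defense list, 2 of the club cell list (Chil1 is on both), and genes of the type I cell, capillary, fibroblast and lipid lists. Pon1, an esterase of lipoproteins, measured 9.88, 10.00 and 9.41 at E19.5 and 7.36, 6.92 and 7.95 at E18.5. This was the largest rise among all genes called without overlap, 5.11-fold (log2 difference 2.35 ± 0.25 SE, adjusted p = 4.4e-08). Lcn2, a protein that binds bacterial siderophores, measured 10.20, 10.91 and 9.90 at E19.5 and 8.24, 7.98 and 8.53 at E18.5 (2.09 ± 0.19, adjusted p = 4.9e-09). The lysozyme Lyz1 measured 13.08, 13.43 and 13.08 at E19.5 and 11.36, 10.86 and 11.43 at E18.5 (1.98 ± 0.23). The E19.5 litters were higher than every E18.5 litter for each of these genes, which the rule for choosing the largest rises required. Lyz1 and its neighbour Lyz2, which rose by 1.54, are near-identical in sequence, so the signal may be split between them. Others in this set were Scgb1c1 (1.97), Chil3 (1.90), Rtkn2 (1.89), Car4 (1.88), Scgb3a1 (1.83), Gdpd2 (1.82), Inmt (1.81), Spink5 (1.68), Pnliprp1 (1.68), Slfn4 (1.63), Chil1 (1.57) and Ly6g (1.56).

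The 15 largest falls were led by secreted and junctional proteins, and most of the remainder were genes of cell division. Cym, the milk-clotting protease chymosin, measured 7.38, 6.46 and 7.46 at E19.5 and 9.38, 10.05 and 8.95 at E18.5 (-2.36 ± 0.23, adjusted p = 1.3e-08). Crh, corticotropin-releasing hormone, measured 5.63, 5.13 and 5.52 at E19.5 and 7.36, 7.94 and 7.60 at E18.5 (-2.21 ± 0.20, adjusted p = 4.0e-09). Cldn6, a claudin of embryonic epithelium, measured 6.99, 7.07 and 6.99 at E19.5 and 8.91, 9.46 and 8.53 at E18.5 (-1.95 ± 0.15). Cdh16, an epithelial cadherin, fell by 1.75. The other 11 were Depdc1a, Kif11, Nuf2, Bub1, Cep55, Ncapg, Shcbp1, Ttk, Kif15, Prc1 and Neil3, with falls between 1.71 and 1.92.

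**Figure D2:**
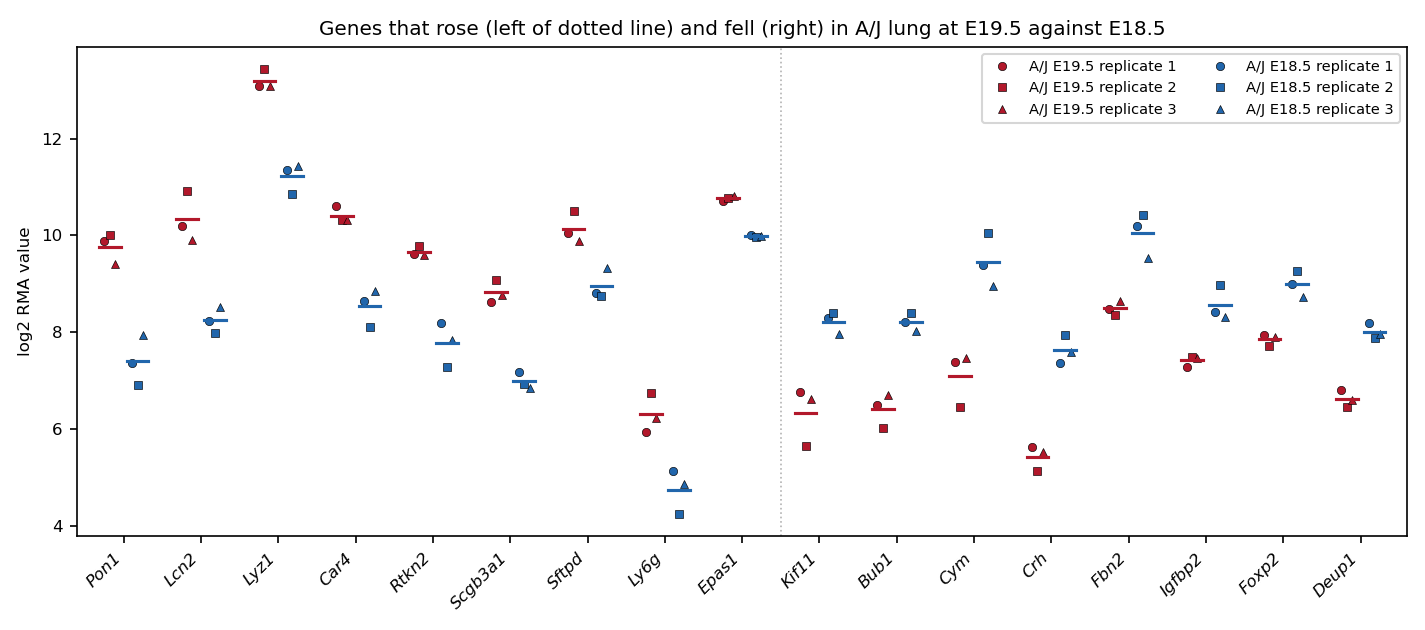
Log2 RMA values of 17 genes in each litter, with A/J E19.5 in red and A/J E18.5 in blue (circles, squares and triangles are replicates 1, 2 and 3) and bars at group means. For every gene shown, all 3 values at E19.5 lie on the same side of all 3 values at E18.5, from Pon1, with the largest rise (2.35), to Cym, with the largest fall (-2.36). The largest rises and falls were chosen among genes called without overlap.

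Genes of surfactant and of the lamellar bodies, the organelles in which type II cells store it, rose in part. Of 18 measured, 9 were higher, 1 lower and 8 did not pass the test, with a median difference of 0.345 (10 higher, 0 lower and a median of 0.48 after centring). Sftpd, a collectin that binds microbes and regulates the surfactant pool, measured 10.04, 10.50 and 9.88 at E19.5 and 8.81, 8.75 and 9.33 at E18.5 (1.18 ± 0.16, adjusted p = 2.8e-06). Its fellow collectin Sftpa1 rose by 0.60 (adjusted p = 0.00597), and Sftpb, which spreads the phospholipid film, by 0.48 (adjusted p = 0.0302). Sftpc did not pass, at 13.81, 13.82 and 13.87 at E19.5 and 13.67, 13.71 and 13.76 at E18.5 (0.12 ± 0.09, adjusted p = 0.361). Among genes of lamellar body assembly, the lipid transporter Abca3 rose by 0.31, the membrane protein Lamp3 by 0.58 and the secretory GTPase Rab27a by 0.59, while Vps33b (-0.21) and Bloc1s6 (-0.06) did not pass. Adgrf5, the receptor that restrains the surfactant pool, rose by 0.56. The phosphatidylcholine-remodelling enzyme Lpcat1 had a difference of 0.13 (adjusted p = 0.237), which passed only after centring (0.26, adjusted p = 0.0159). RNA of the chemokine gene Cxcl15 (0.92) and of Hc, the gene of complement component C5 (1.08), both on this list, rose as well. Protein was not measured. The only gene called lower was the protease Pgc (-0.43, adjusted p = 0.048), and this call was lost on centred arrays (-0.29, adjusted p = 0.202).

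Of 14 markers of type II cells, several of them on the surfactant list, 6 were higher and 2 lower, with a median of 0.31 (8 and 0 after centring).

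The enzymes that make surfactant lipid did not move as a group. Of 24 genes of fatty acid and phospholipid synthesis, 3 were higher and 3 lower (5 and 2 after centring), and of 17 genes of cholesterol synthesis and uptake 0 were higher and 2 lower (2 and 0 after centring). Scd1, the desaturase that makes oleate, measured 11.51, 11.36 and 11.22 at E19.5 and 10.43, 9.87 and 10.23 at E18.5 (1.19 ± 0.18, adjusted p = 9.5e-06). Elovl1, an elongase of long fatty acids, rose by 0.47. Pcyt1a, the rate-limiting enzyme of phosphatidylcholine synthesis, measured 8.50, 8.42 and 8.50 at E19.5 and 8.88, 8.80 and 8.77 at E18.5, a fall of 0.34 that was 0.21 after centring and passed both ways (adjusted p = 0.0002 and 0.019). Dgat2, which makes triglyceride, fell by 0.52. Of 18 genes of lipid uptake, storage and burning, 3 were higher and 6 lower, a balance that turned to 4 and 3 after centring. Lipoprotein lipase (Lpl, 0.55), its capillary anchor Gpihbp1 (0.48) and the fatty acid transporter Cd36 (0.40) were the 3 that rose, and the mitochondrial dehydrogenase Acadl fell by 0.53.

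Among 20 type I cell markers 6 were higher and 1 lower (9 and 1 after centring). Rtkn2, a marker of type I cells in mouse, measured 9.62, 9.78 and 9.60 at E19.5 and 8.20, 7.29 and 7.84 at E18.5 (1.89 ± 0.19, adjusted p = 1.4e-08). The water channel Aqp5 rose by 0.69, and the basement membrane collagen chains Col4a3 and Col4a4, which assemble together, by 0.38 and 0.51. Pdpn, the type I cell surface protein, rose by 0.35. Ager, the abundant type I marker, had a difference of 0.19 and did not pass (adjusted p = 0.263), nor did the type I cell regulator Hopx (-0.10, adjusted p = 0.539). Igfbp2, which binds insulin-like growth factors, was the marker that fell (-1.15 ± 0.12), with 7.28, 7.50 and 7.48 at E19.5 and 8.42, 8.97 and 8.31 at E18.5.

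Capillary genes rose in part, with few falls. Of 24 capillary and vessel regulators 9 were higher and 2 lower (13 and 0 after centring), and of 18 general endothelial markers 4 were higher and 1 lower (12 and 1 after centring). Car4, the carbonic anhydrase of the capillary surface, measured 10.60, 10.32 and 10.31 at E19.5 and 8.64, 8.10 and 8.86 at E18.5 (1.88 ± 0.20, adjusted p = 3.5e-08). Ace, the angiotensin-converting enzyme, rose by 0.90. Epas1, the hypoxia-inducible factor of lung endothelium, measured 10.72, 10.77 and 10.81 at E19.5 and 10.01, 9.96 and 9.98 at E18.5, a rise of 0.78 with little spread within either day. Kitl rose by 0.61 and the endothelial phosphatase Ptprb by 0.59. The junctional endothelial genes moved less, with Cdh5 at 0.44 and Cldn5 at 0.42, and the nitric oxide synthase Nos3 fell by 0.40.

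Of 20 genes for lung liquid most did not pass. As deposited 4 were higher and 2 lower, and after centring 8 and 1. The water channels Aqp1 (0.73, adjusted p = 4.2e-05), Aqp5 and Aqp4 (0.34, adjusted p = 0.0075) were higher. Of the subunits of the epithelial sodium channel, which absorbs lung liquid, Scnn1a rose by 0.45 (adjusted p = 0.0262), with 10.75, 10.56 and 10.52 at E19.5 and 10.12, 9.88 and 10.47 at E18.5. Scnn1b (0.28, adjusted p = 0.0671) and Scnn1g (0.17, adjusted p = 0.272) passed only on centred arrays (0.42 and 0.31, adjusted p = 0.0116 and 0.049). The chloride channel Cftr had a difference of 0.25 (adjusted p = 0.191), which passed after centring (0.38, adjusted p = 0.0426). Ano1, another chloride channel, fell by 0.60 (adjusted p = 3.9e-05). Slc12a2, the cotransporter that loads chloride into the epithelium, fell by 0.35 (adjusted p = 0.00338), a call lost after centring (adjusted p = 0.101).

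Markers of the secretory cells of the airway rose. Of 17 club cell markers 11 were higher and 1 lower, with a median of 0.51 (14 and 1, median 0.65, after centring, and as deposited 8 higher without replicate 2 of E19.5 and 7 without replicate 2 of E18.5). The secretoglobin Scgb3a1 measured 8.63, 9.07 and 8.77 at E19.5 and 7.19, 6.94 and 6.86 at E18.5 (1.83 ± 0.13, adjusted p = 2.1e-10). Scgb1a1, the main club cell protein, measured 13.15, 13.20 and 12.96 at E19.5 and 11.94, 11.45 and 12.02 at E18.5 (1.30 ± 0.41, adjusted p = 0.018). The monooxygenase Cyp4b1 rose by 1.28, the antimicrobial lectin Reg3g by 1.39 and Scgb3a2 by 0.73. The marker that fell, the basal keratin Krt15 (7.30, 7.70 and 7.18 at E19.5 and 8.44, 8.34 and 8.32 at E18.5), is also made by esophagus, whose markers moved the same way in replicates 1 and 3. The part of that tissue in the Krt15 difference was not tested.

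Host defense genes rose broadly. Of 37 genes of innate defense and inflammation 22 were higher and 1 lower, with a median of 0.58 (26 and 0, median 0.71, after centring), and of 23 genes of the interferon response and antigen presentation 13 were higher and 0 lower, with a median of 0.44 (18 and 0, median 0.57). Without replicate 2 of E19.5 the higher counts were 17 and 11. The chitinase-like proteins Chil1 and Chil3 rose by 1.57 and 1.90. Among interferon-induced genes Ifit3 measured 5.51, 6.60 and 5.90 at E19.5 and 4.52, 4.76 and 4.92 at E18.5 (1.27 ± 0.21, adjusted p = 3.7e-05), Ifit1 rose by 1.18, the regulator Irf7 by 0.96 and Rsad2 by 0.89. B2m, the light chain of class I antigen presentation, rose by 0.55, whereas the class II genes H2-Aa, H2-Ab1, H2-Eb1 and Cd74 did not pass as deposited and were called higher after centring (0.62, 0.57, 0.37 and 0.44). Their activator Ciita did not pass on either scale. Il6, the inflammatory cytokine, was the defense gene called lower (-0.32), a call lost after centring.

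Markers of neutrophils rose together with these genes, and 6 of them are also on the defense list. The part of neutrophils in the rise of the defense genes was not tested. Of 17 neutrophil markers 12 were higher and 0 lower, with a median of 0.55 (12 and 0, median 0.69, after centring). The list mean was 6.44, 6.83 and 6.45 at E19.5 and 5.87, 5.75 and 5.88 at E18.5, without overlap. Without replicate 2 of E19.5, 7 were called higher as deposited and 12 on centred arrays. Ngp, a neutrophil granule protein, measured 7.52, 7.76 and 7.92 at E19.5 and 6.38, 5.76 and 6.50 at E18.5 (1.52 ± 0.18, adjusted p = 1.6e-07). The calgranulins S100a9 and S100a8, which neutrophils hold in quantity, rose by 1.34 and 1.24, and the chemokine receptor Cxcr2 by 1.25. The granule proteins Mpo, Elane and Ctsg, made early in the lineage, did not pass. Prtn3, another early granule protein, rose by 0.42 (adjusted p = 0.0144, and 0.00323 after centring). Ly6g, the surface marker of mature mouse neutrophils, measured 5.95, 6.74 and 6.24 at E19.5 and 5.13, 4.26 and 4.87 at E18.5 (1.56 ± 0.17, adjusted p = 6.7e-08). Of 17 macrophage markers 5 were higher and 0 lower (8 and 0 after centring), and of these the cathepsin Ctss rose by 0.84 and Marco, a scavenger receptor of alveolar macrophages, by 0.40. Without replicate 2 of E19.5 the count as deposited was 2. Of 18 lymphoid and mast cell markers 3 were higher as deposited and 4 after centring. The 3 were the mast cell proteases Mcpt4 (0.82) and Cpa3 (0.74) and the T cell marker Cd8a (0.43).

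Cell division genes fell almost without exception. Of 37 mitosis genes 36 were lower and 0 higher, with a median of -1.44, and centring gave the same counts with a median of -1.31. Leaving out replicate 2 of E19.5, in which the list mean was lowest (7.16, 6.49 and 7.12 at E19.5 and 8.32, 8.49 and 8.13 at E18.5), also left 36 lower. Kif11, the motor that separates the spindle poles, measured 6.76, 5.65 and 6.62 at E19.5 and 8.30, 8.40 and 7.97 at E18.5 (-1.88 ± 0.21, adjusted p = 1.2e-07). Bub1, a kinase of the spindle checkpoint, measured 6.50, 6.03 and 6.70 at E19.5 and 8.21, 8.40 and 8.03 at E18.5 (-1.80 ± 0.17, adjusted p = 1.3e-08). The kinetochore protein Nuf2 fell by 1.86, the checkpoint kinase Ttk by 1.77 and Prc1, which bundles the central spindle, by 1.71. Cdc25b, the phosphatase that starts mitosis, was the member that did not pass (-0.01, adjusted p = 0.925).

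Genes of DNA replication fell as well, 32 of 35 lower and 0 higher, with a median of -0.86 (31 lower, median -0.73, after centring). Prim1, a subunit of DNA primase, measured 6.63, 6.50 and 6.90 at E19.5 and 8.21, 8.27 and 8.0 at E18.5 (-1.48 ± 0.14, adjusted p = 4.9e-09). The ribonucleotide reductase subunits Rrm2 and Rrm1 fell by 1.34 and 1.20, and Mcm3, a part of the replicative helicase, by 1.27. Of 26 replication-dependent histone genes 18 were lower (13 after centring). H1f1 fell by 1.21 and H2ac4 by 1.56, but many of these genes are near-identical copies, whose signals the probes may not separate. Of 22 chromatin regulators 17 were lower (9 after centring), among them Hmgb2 (-0.90), the maintenance methyltransferase Dnmt1 (-0.78) and Ezh2 (-0.59). Among 17 D cyclins and cell cycle inhibitors 6 were lower and 1 higher (4 and 1 after centring). The inhibitors Cdkn2c (-1.07) and Cdkn1c (-0.84) fell, as did Ccnd1 (-0.34) and Ccnd2 (-0.40), and Gadd45a, a gene of growth arrest, rose by 0.55.

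The promoters of the mitosis genes, which moved together, were searched for elements known to control genes of this phase in mammals, the CCAAT box and the cell cycle homology region (CHR). RefSeq (GRCm38.p6) promoters of 300 bases, 250 before and 50 after the start, were available for 30 of the 37 genes, in 32 promoters. The CHR was searched as the letters TTTGAA on either strand and as the variant TTCGAA. These letters were in 27 of the 32 (84.4%), against 19.2% of all 32851 promoters, and CCAAT, read on either strand, was in 23 (71.9%), against 37.4%. The E2F letters TTCCCGC on either strand, known from genes of DNA replication, were in 0 of the 32, in 14 of 36 promoters of the replication list (38.9%) and in 4.6% of all promoters. Both strands were searched, and matches of different motifs may share end bases. In the 14 promoters of the surfactant list, CHR letters were in 3 and CCAAT letters in 2. A match shows that the letters are there and not that a factor binds. Both motifs lay within the 100 bases before the start in 6 of the mitosis genes searched for this. Not all 37 were searched, so 6 is a lowest count for the list. The following 4 are printed to show this arrangement, 5′ to 3′ on the gene's strand up to the start, with the CCAAT and CHR letters in capitals. Top2a and Cdc20 were chosen for it after their values were seen.
Kif11, chr19:37376282-37376381, plus strand: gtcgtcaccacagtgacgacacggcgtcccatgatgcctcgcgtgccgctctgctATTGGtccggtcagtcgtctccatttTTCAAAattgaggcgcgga
Prc1, chr7:80294376-80294475, plus strand: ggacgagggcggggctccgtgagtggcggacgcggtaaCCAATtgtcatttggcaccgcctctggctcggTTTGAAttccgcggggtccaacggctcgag
Top2a, chr11:99024190-99024289, minus strand: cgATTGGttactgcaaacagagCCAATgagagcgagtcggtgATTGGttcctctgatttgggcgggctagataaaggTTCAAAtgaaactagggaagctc
Cdc20, chr4:118437344-118437443, minus strand: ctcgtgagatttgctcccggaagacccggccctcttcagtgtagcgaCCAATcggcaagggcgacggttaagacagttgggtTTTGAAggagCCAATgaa
Top2a, the topoisomerase that untangles sister chromosomes, measured 8.37, 7.28 and 8.38 at E19.5 and 9.46, 9.83 and 9.28 at E18.5 (-1.51 ± 0.21, adjusted p = 3.6e-06). Cdc20, the activator of the anaphase-promoting complex, measured 7.36, 6.55 and 7.22 at E19.5 and 8.44, 8.75 and 8.32 at E18.5 (-1.46 ± 0.13, adjusted p = 4.0e-09). In both genes every E19.5 litter was below every E18.5 litter, and replicate 2 of E19.5 was the lowest. The values of the 2 days did not overlap for 88.3% of all called probe sets.

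A different set of falls concerned the multiciliated cells of the airway, which amplify their centrioles to build many cilia. The motile cilia list as a whole did not move in 1 direction, with 2 of 27 genes higher and 5 lower (5 and 3 after centring, and 3 lower as deposited without replicate 3 of E19.5 or replicate 1 of E18.5). Ccno, a cyclin of centriole amplification, was the largest change on it, with 6.98, 6.87 and 7.10 at E19.5 and 7.91, 7.93 and 7.89 at E18.5 (-0.93 ± 0.09, adjusted p = 2.2e-08). Deup1, which builds the deuterosomes from which the centrioles arise, measured 6.80, 6.46 and 6.60 at E19.5 and 8.20, 7.88 and 7.97 at E18.5 (-1.40 ± 0.12, adjusted p = 1.2e-09). Cdc20b, a neighbour of Ccno on chromosome 13, measured 6.97, 6.35 and 6.82 at E19.5 and 8.28, 8.43 and 8.28 at E18.5 (-1.62 ± 0.16, adjusted p = 1.3e-08). Mir449c, a miRNA gene at the same locus, measured 6.17, 5.49 and 5.97 at E19.5 and 7.21, 7.05 and 7.25 at E18.5 (-1.29 ± 0.18, adjusted p = 5.0e-06). The litters of the 2 days did not overlap for any of these 4 genes, which held for 88.3% of all called probe sets and 35% of all tested. Foxj1, the factor that switches on the genes of the ciliary shaft, had a difference of -0.12 (adjusted p = 0.536), and Mcidas, which sets the fate of these cells, a difference of -0.06 (adjusted p = 0.773). Sntn and Tppp3, found in mature cilia and their cells, rose by 0.61 and 0.37. Other genes of the same list fell, Lrrc23 by 0.67, Spag17 by 0.41 and Rsph1 by 0.36. The calls of Lrrc23 and Spag17 held after centring (adjusted p = 0.0113 and 0.0434), and that of Rsph1 was lost (adjusted p = 0.156). Deup1, Cdc20b, Mir449c and Mcidas were chosen after their values were seen. The mature miRNAs of the locus and their relative miR-34b share a seed, bases 2 to 8, which is in capitals in these RefSeq sequences (GRCm38.p6).
mmu-miR-449c-5p, chr13:113036008-113036028, plus strand: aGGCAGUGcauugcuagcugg
mmu-miR-449a-5p, chr13:113037549-113037570, plus strand: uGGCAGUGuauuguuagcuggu
mmu-miR-34b-5p, chr9:51103610-51103632, minus strand: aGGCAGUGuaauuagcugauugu
The array probe set reads the precursor or its host transcript, so the value for Mir449c is no measure of the mature miRNA.

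**Figure D3:**
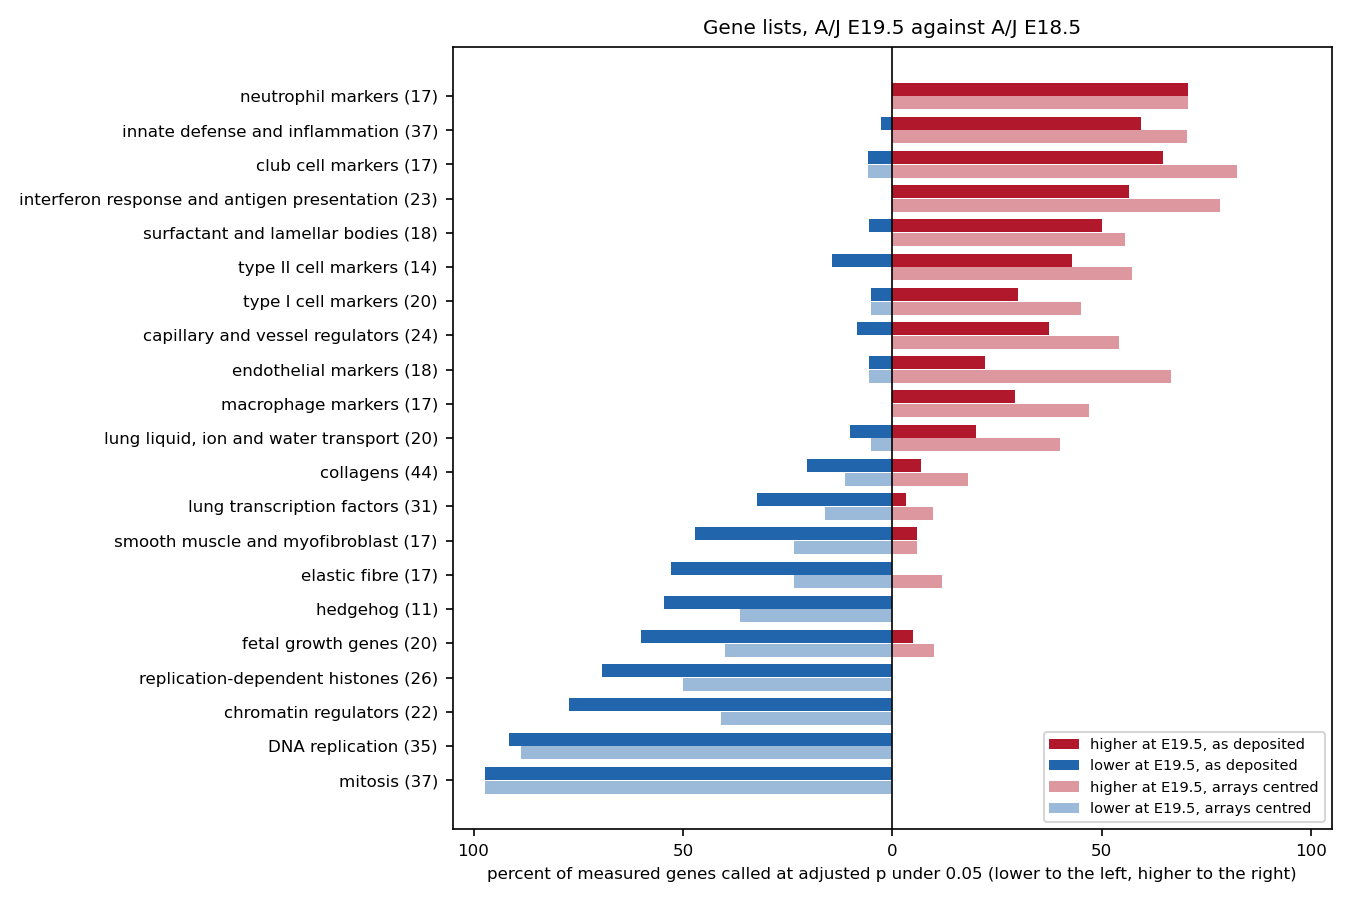
Share of measured genes called higher (to the right) and lower (to the left) at A/J E19.5 against A/J E18.5 in each gene list, as deposited and with each array centred on its median. Mitosis shows 36 of 37 genes lower on both scales, whereas the lower shares of lists with small changes, such as chromatin regulators (17 and 9 of 22), shrink after centring.

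Matrix and mesenchymal lists were mixed, and their counts are to be read against the 23.7% of all probe sets that were lower. Of 17 elastic fibre genes 9 were lower and 0 higher (4 and 2 after centring). Fbn2, the fibrillin of fetal elastic fibres, measured 8.49, 8.36 and 8.64 at E19.5 and 10.19, 10.42 and 9.54 at E18.5 (-1.55 ± 0.16, adjusted p = 1.8e-08), and Lox, which crosslinks elastin and collagen, fell by 0.86. Elastin itself (Eln) had a difference of -0.28 (adjusted p = 0.043), a call lost after centring (-0.15, adjusted p = 0.35). Of 44 collagen genes 3 were higher and 9 lower, and 8 and 5 after centring. The lower ones included Col12a1 (-0.83), Col18a1 (-0.70) and the fibrillar chain Col1a2 (-0.45). Of 17 smooth muscle and myofibroblast genes 8 were lower and 1 higher (4 and 1 after centring, and 4 lower as deposited without replicate 3 of E19.5), with smooth muscle actin (Acta2) at -0.53 and Myh11 at -0.49. Of 23 laminins, integrins and cadherins 11 were lower and 2 higher (5 and 4 after centring, and 7 lower as deposited without replicate 1 of E18.5). The laminin chain Lama3 fell by 0.59 while Lama2 rose by 0.51. Of 18 markers of alveolar fibroblasts and lipofibroblasts 3 were higher and 0 lower (4 and 0 after centring). Inmt, a methyltransferase of lung fibroblasts, measured 12.16, 12.65 and 11.99 at E19.5 and 10.44, 9.88 and 11.06 at E18.5 (1.81 ± 0.30, adjusted p = 4.0e-05), and Npnt, a matrix ligand of integrins, rose by 0.37.

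Among developmental signals and their receptors, the hedgehog list was lower most often. Of 11 hedgehog genes 6 were lower and 0 higher (4 after centring), the ligand Shh by 0.50, its transducer Smo by 0.40 and the effector Gli3 by 0.72. Of 26 Wnt genes 6 were lower and 1 higher (3 and 3 after centring), with the ligands Wnt5a (-0.85) and Wnt7b (-0.43) among the falls. Of 30 Fgf, Bmp and Tgfb genes 7 were lower and 2 higher (3 and 4 after centring, and as deposited 4 lower without replicate 3 of E19.5 or replicate 1 of E18.5 and 11 without replicate 3 of E18.5). Tgfb2 fell by 0.70 and the receptor Fgfr2 by 0.49, and the ligand Fgf1 rose by 0.49. The lower shares of the Wnt list and of the Fgf, Bmp and Tgfb list were near the 23.7% of all probe sets. Of 17 Notch genes 3 were lower on both scales, the feedback gene Nrarp by 0.56. This share lay below the 23.7% of all probe sets as deposited and above the 9.33% after centring.

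Of 31 transcription factors of lung development 10 were lower and 1 higher, and after centring 5 and 3, with 20 not passing as deposited. Of all probe sets 23.7% were lower and 4.56% higher, and after centring 9.33% and 11.4%. Foxp2, a repressor of the distal epithelium, measured 7.95, 7.71 and 7.90 at E19.5 and 9.0, 9.27 and 8.73 at E18.5 (-1.15 ± 0.13, adjusted p = 1.8e-07). Mycn, which drives growth of the distal tips, fell by 0.92 (adjusted p = 1.2e-05), and Klf5, a factor of distal epithelium, by 0.49 (adjusted p = 0.00059). Nkx2-1 measured 9.34, 9.61 and 9.52 at E19.5 and 9.94, 9.78 and 9.83 at E18.5, a fall of 0.36 (0.23 after centring, adjusted p = 0.00068 and 0.0326). Etv5, an Fgf target that maintains type II cells, fell by 0.32, a call lost after centring (adjusted p = 0.0815). Epas1 was the only member that rose as deposited, and Cebpa and Pparg, regulators of lipid genes, passed only after centring (0.40 and 0.36, adjusted p = 0.00559 and 0.00823). The values of Foxa1, Foxa2, Gata6, Sox2, Sox9, Tbx5, Stat3 and Foxf1 did not pass on either scale.

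Genes of fetal growth, inhibitors of growth among them, were lower more often than higher. Of 20 measured 12 were lower and 1 higher (8 and 2 after centring). Igf2, the fetal growth factor, measured 10.99, 11.01 and 10.84 at E19.5 and 11.75, 11.83 and 11.65 at E18.5 (-0.80 ± 0.07, adjusted p = 2.7e-09). Igf1 fell by 0.87, the RNA-binding proteins Igf2bp1 and Igf2bp3 by 0.94 and 0.83, and the imprinted adaptor Grb10 by 0.67. Igfbp3, a binding protein of these growth factors, was the member that rose (1.13 ± 0.17).

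Genes of the respiratory chain and ribosomal protein genes moved little, and their balance turned with the scale. Of 80 respiratory chain genes 15 were lower and 1 higher as deposited (8 lower without replicate 1 of E19.5), and 4 and 8 after centring. Of 58 ribosomal protein genes 7 were lower and 1 higher (as deposited 4 lower without replicate 1 of E19.5 or replicate 2 of E18.5, and 3 without replicate 3 of E19.5), and 0 and 8 after centring. Of 23 genes of hypoxia and glycolysis 7 were lower and 1 higher (4 and 2 after centring, and 4 lower as deposited without replicate 3 of E19.5), with lactate dehydrogenase (Ldha) at -0.46. In the glucocorticoid pathway, which speeds lung maturation before birth, 3 of 21 genes were higher and 3 lower (3 and 2). The hormone-induced gene Tsc22d3 rose by 0.42 (adjusted p = 0.022), and Crispld2, also induced by the hormone, fell by 0.75. Of 29 antioxidant and xenobiotic enzymes 8 were higher and 4 lower (12 and 4 after centring, and 2 lower as deposited without replicate 3 of E19.5), among them Aox3 (0.90) and the glutathione transferase Gstm1 (0.56).

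Over the whole A/J course the groups differed in when they moved. The mean of the 37 mitosis genes was 9.51, 9.43, 8.66, 8.31, 6.92, 6.25 and 6.40 from E15.5 to PN0, so that the interval between E18.5 and E19.5 held the largest of its daily differences. The mean of Deup1, Ccno and Cdc20b was 6.20, 7.39, 7.92, 8.09, 6.77, 6.49 and 6.44 over the same days, highest at E18.5 as deposited. All means in this paragraph are of deposited values. The array medians averaged 7.107 at A/J E18.5 and 6.967 at A/J E17.5. The part of this level in the difference of the set between those days was not tested. The surfactant list mean was 8.03, 8.89, 9.95, 10.40, 10.78, 10.88 and 10.88, and the neutrophil list mean 5.27, 5.21, 5.50, 5.83, 6.57, 6.74 and 7.35. Across all probe sets the next interval, E20.5 against E19.5, had 43 higher and 111 lower. The interval before, E18.5 against E17.5, had 5831 higher and 993 lower, and 2431 and 2656 after centring. Both of these intervals share arrays with the comparison described here.

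**Figure D4:**
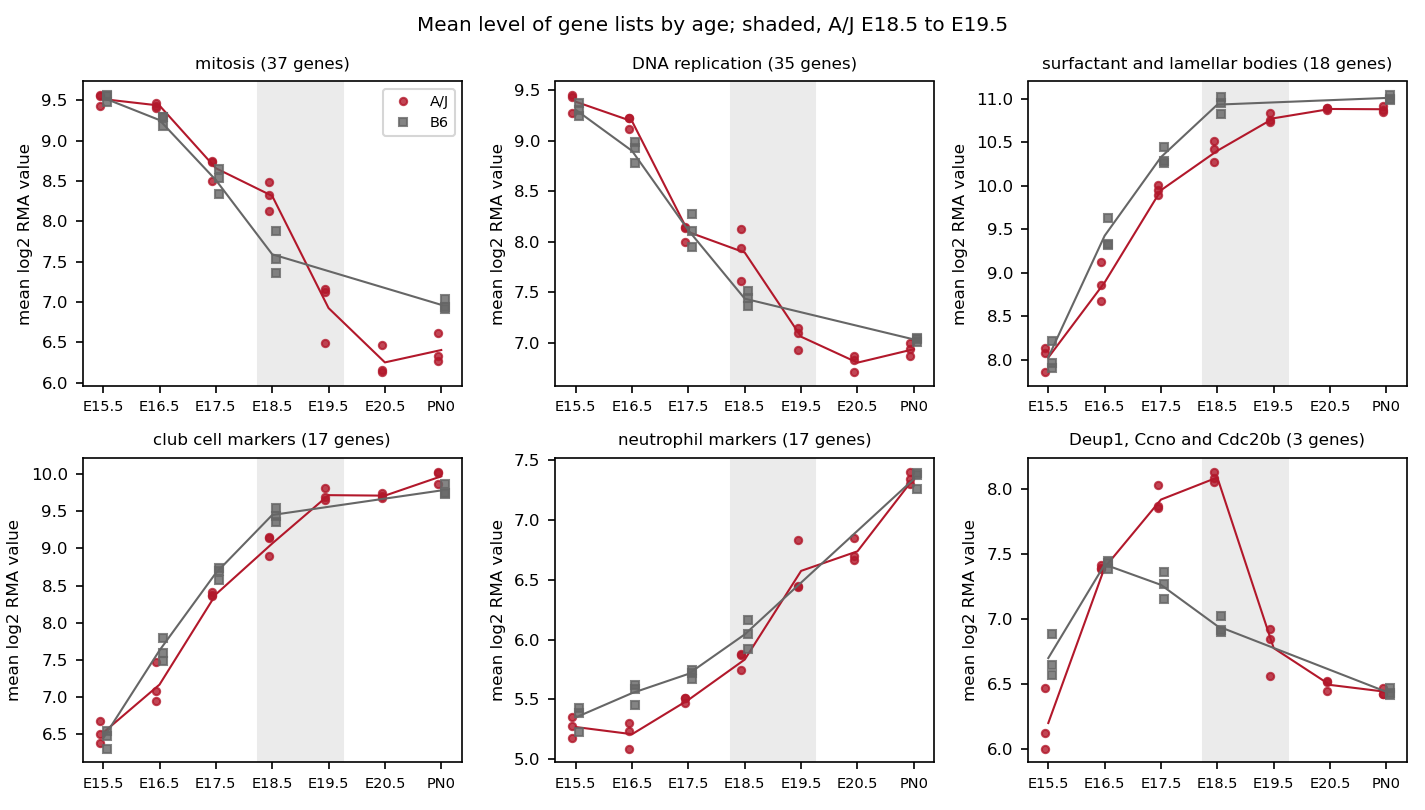
Mean log2 RMA value of 6 gene sets by embryonic day, in A/J (red) and B6 (grey), with a point for each litter and lines through the group means, where B6 has no E19.5 or E20.5 samples. The mean of the mitosis genes in A/J lung is 6.92 at E19.5, against 8.31 at E18.5. The A/J mean of Deup1, Ccno and Cdc20b is highest at E18.5 (8.09, as deposited), whereas the B6 mean is highest at E16.5 (7.42).

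To ask whether A/J took this step as B6 did, the A/J difference was compared with the B6 difference E18.5 against E17.5, which also ends on the day before that strain is born. No array is in both steps. Over all 21789 probe sets the B6 step had 2774 higher and 2392 lower, against 993 and 5172 for the A/J step. On centred arrays the B6 counts were 2975 and 2213. List counts of the 2 strains are to be read against these totals. Across 19938 genes the 2 differences correlated at r = 0.413, a description across genes, which are not independent. The difference between the steps was more positive in A/J for 656 probe sets (3.01%) and more negative for 3193 (14.7%), and on centred arrays for 1478 and 1322. Leaving out single arrays moved the first count between 280 and 942. It was 361 without replicate 2 and 425 without replicate 3 of A/J E19.5, 431 without replicate 3 of A/J E18.5, 373 without replicate 2 of B6 E17.5 and 280 without replicate 3 of B6 E18.5, which also gave 1944 more negative.

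Some neutrophil genes rose by more in A/J. Of 17 markers, 4 had a more positive step in A/J and 0 a more negative one (6 and 0 after centring). As deposited 12 were called higher in A/J and 5 in B6. Without replicate 2 of A/J E19.5 the A/J count was 7 as deposited and 12 on centred arrays. Ly6g changed by 1.56 in A/J and by -0.17 in B6 (difference 1.73, adjusted p = 9.4e-05). S100a9 changed by 1.34 in A/J and by 0.25 in B6 (1.09, adjusted p = 0.0002). Scgb1c1, a secretoglobin, changed by 1.97 in A/J and by 0.89 in B6 (1.09, adjusted p = 0.00129). The other genes with the most positive differences were Gm6034, Hamp2 and Krtap5-3 (1.13 to 1.26), which were called higher in A/J (0.57, 0.89 and 0.80), with B6 differences of -0.69, -0.27 and -0.32.

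The step was more negative in A/J for other genes. Inmt rose by 1.81 in A/J and by 3.97 in B6 (-2.16, adjusted p = 0.00123). Gpx3, a secreted glutathione peroxidase, changed by 0.42 in A/J (adjusted p = 0.0811) and by 2.01 in B6 (-1.59, adjusted p = 0.00021). Bcas1 measured 5.28, 5.30 and 5.14 at A/J E19.5 and 6.51, 5.99 and 6.26 at A/J E18.5, a fall of 1.01, with a B6 difference of 0.32 (-1.33, adjusted p = 0.00012). Cym fell by 2.36 in A/J, against a B6 difference of -0.70 (-1.66, adjusted p = 0.00129). Trim12a measured 3.84, 3.96 and 4.15 at A/J E19.5 and 4.42, 4.04 and 4.02 at A/J E18.5, with a difference of -0.18 in A/J and 1.22 in B6 (-1.40, adjusted p = 7.9e-05), and Mir369 had differences of -0.59 in A/J and 0.92 in B6 (-1.51, adjusted p = 0.00632).

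Of the larger groups, mitosis genes fell in both strains, with 36 of 37 called lower in each, a median of -1.44 in A/J and -0.94 in B6. For 11 of them the A/J step was the more negative, among them Cdc20 (-0.86, adjusted p = 0.00265) and Ttk (-0.93, adjusted p = 0.00296), and for 3 after centring. Deup1, Ccno and Cdc20b fell by 1.40, 0.93 and 1.62 in A/J, with B6 differences of -0.36, -0.07 and -0.52, and the steps differed for each (adjusted p = 0.00021, 0.00019 and 0.00167). Collagens showed the reverse. As deposited 9 of 44 were lower in A/J and 25 in B6, and the A/J step was more positive for 10 and more negative for 0 (22 and 0 after centring), for example Col1a2 (0.46, adjusted p = 0.0282). Surfactant genes showed little difference between the steps, with 9 of 18 higher in A/J and 13 in B6, and 2 more negative in A/J as deposited and 0 after centring. Lipid synthesis was called higher for 3 of 24 genes in A/J and 11 in B6, with 8 of the steps more negative in A/J (3 after centring). Respiratory chain genes had 26 of 80 steps more negative in A/J (8 after centring).

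**Figure D5:**
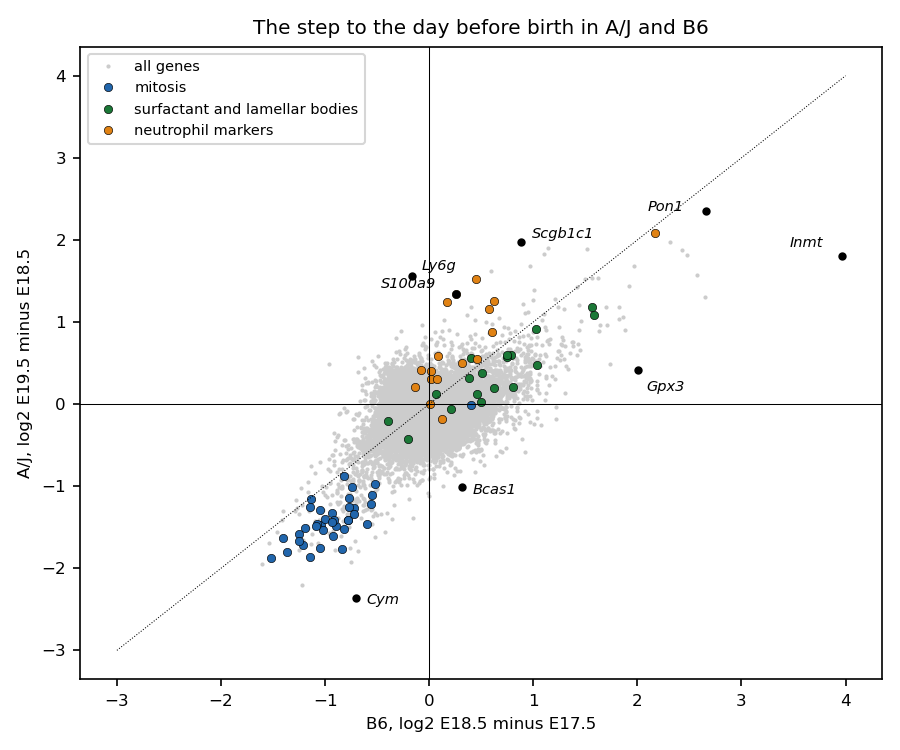
Log2 difference of each gene in A/J (E19.5 minus E18.5, vertical axis) against B6 (E18.5 minus E17.5, horizontal axis), with mitosis genes in blue, surfactant genes in green, neutrophil markers in orange, named genes in black and the dotted line where both differences are equal. Mitosis genes fall in both strains, Ly6g lies at 1.56 in A/J and -0.17 in B6, and Inmt at 1.81 in A/J and 3.97 in B6.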

How the data were processed

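The authors deposited log2 values after robust multi-array averaging (RMA) in Affymetrix Expression Console 1.1, for 35556 probe sets and 37 arrays, and these deposited log2 values were used without further normalization. Each replicate was RNA of the right lungs of 3 male fetuses of a litter, pooled. Probe sets were named from the platform annotation: 21789 had exactly 1 gene symbol (19938 genes), 1621 had several and 12146 had none, and symbols were updated through gene IDs to RefSeq for 21698. A gene was represented by its probe set with the highest mean.

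A mean for each of 12 strain and time groups was fitted to 36 replicates (B6 E18.5 arrays 2 and 2b averaged) with limma 3.58.1 in R 4.3.3 (lmFit and eBayes, 24 residual and 6.13 prior degrees of freedom), with two-sided tests and Benjamini-Hochberg adjustment over the 21789 probe sets. The same fit gave the B6 step E18.5 against E17.5 and the difference between the steps. The scripts were tested on simulated data with known changes. With 3 litters per group, the number of arrays limits the precision. The alternatives were centring each array on its median, quantile normalization, other sample sets, filters and thresholds, a replicate block, the mean of a gene's probe sets, and leaving out each array.

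The 48 gene lists, tests and members were chosen with earlier results of these data known. Genes were named by rule: the 15 largest rises and 15 largest falls called without overlap, up to 8 members of each list by size of difference (any member of the surfactant, transcription factor and liquid transport lists), and the 6 largest differences from the B6 step in each direction. Ager, Cd74, Cdc20, Cdc20b, Cdc25b, Ciita, Ctsg, Deup1, Elane, Foxj1, H2-Aa, H2-Ab1, H2-Eb1, Il6, Mcidas, Mir449c, Mpo, Prtn3 and Top2a fall outside it and were chosen after their values were seen.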

Additional observations from a re-analysis of the deposited data

Results flagged for a closer look

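The results below were picked out because the A/J step (E19.5 minus E18.5) and the B6 step (E18.5 minus E17.5) differed by a test of the difference itself in limma, at an adjusted p under 0.05. Each value is the A/J step minus the B6 step on the log2 scale, as deposited, and the threshold was passed by 656 probe sets in the positive and 3193 in the negative direction, of 21789 tested.

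On the defense list of 37 genes the step was more positive in A/J for 5 and more negative for 5 (9 and 2 on centred arrays). It was more positive for Ly6g (1.73), S100a9 (1.09), S100a8 (1.07), Ngp (1.07) and Slfn4 (1.03), the mast cell protease Mcpt4 (0.86) and the T cell marker Cd8a (0.54). The same held for the secretoglobins Scgb1c1 (1.09) and Scgb3a1 (0.73), the lipase-related Pnliprp1 (0.71), the endothelial phosphatase Ptprb (0.42), the collagen chain Col1a2 (0.46), and Gm6034 (1.26), Hamp2 (1.16) and Krtap5-3 (1.13). All of these also passed on centred arrays.

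The step was more negative in A/J for Inmt (-2.16), Cym (-1.66), Gpx3 (-1.59), Mir369 (-1.51), Trim12a (-1.40), Bcas1 (-1.33), Cdh16 (-0.99) and Crh (-0.99). Among genes of cell division it was more negative for Depdc1a (-1.17), Cep55 (-1.11), Ttk (-0.93), Cdc20 (-0.86), Nuf2 (-0.71), Cdc25b (-0.41), Ccnd1 (-0.45), Rrm2 (-0.60) and the histone H2ac4 (-1.14). Among genes of multiciliated cells it was more negative for Cdc20b (-1.10), Deup1 (-1.04), Ccno (-0.86) and Mir449c (-0.73).

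Among genes of lipid metabolism and surfactant the step was more negative in A/J for Acadl (-0.81), Dgat2 (-0.81), Elovl1 (-0.47), Pcyt1a (-0.34) and Lpcat1 (-0.33), and among the sodium channel subunits for Scnn1a (-0.70), Scnn1b (-0.62) and Scnn1g (-0.52). It was also more negative for Crispld2 (-0.85), Chil1 (-1.0), Il6 (-0.36), Klf5 (-0.71), Foxf1 (-0.55), Cebpa (-0.45), Gli3 (-0.44), Lox (-0.61), Ldha (-0.53), Igf2bp1 (-0.80), Igf2 (-0.56) and Igf1 (-0.39). The threshold was no longer passed on centred arrays for Nuf2, Cdc25b, Ccnd1, Rrm2, Mir449c, Elovl1, Pcyt1a, Lpcat1, Scnn1a, Scnn1g, Chil1, Il6, Foxf1, Cebpa, Gli3, Lox, Ldha and Igf1.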

How the results depend on the processing

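No gene of the 184 checked changed direction while called under any alternative. As deposited 993 probe sets were higher and 5172 lower at E19.5, on centred arrays 2476 and 2034, and after quantile normalization 1991 and 2282. The share of calls that were higher was 16.1% as deposited and 54.9% after centring. For the difference from the B6 step, 656 were more positive and 3193 more negative in A/J as deposited, and 1478 and 1322 after centring. A fit to the 6 arrays alone called 418 higher and 2246 lower, with fewer arrays behind the spread. Leaving out dim probe sets, which tests fewer, called 570 higher. An adjusted p under 0.01 left 440 higher and 3127 lower, and a fold of 1.5 in addition to 0.05 left 215 and 676. Centring with replicate 2 of A/J E19.5 left out, chosen after seeing the data, gave 1578 higher and 1447 lower, and 795 probe sets more negative in A/J than in B6. Leaving out single arrays gave 577 to 956 higher and 3818 to 5148 lower, and 280 to 942 more positive and 1944 to 3580 more negative for the difference between steps. Equal replicate numbers did not pair the litters: their deviations from the group means correlated at -0.019, 0.040 and -0.095. With the replicate number as a block 953 were higher and 5097 lower, and 617 more positive and 3081 more negative. Of the 184 genes checked for the step, 6 lost and 11 gained a call on centred arrays. After quantile normalization 7 lost and 7 gained it. With the 6 arrays alone 19 lost and 0 gained it, and 48 lost it with the added fold of 1.5. The A/J arrays alone, all probe sets, an intensity trend, an unmoderated model, the mean of a gene's probe sets and leaving out array 2b gave counts within 1.5 times of the main ones. Small differences on dim probe sets are limited by signal over background, which the deposited values do not give.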

Other observations

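The imprinted Dlk1-Dio3 locus on chromosome 12 carries a large cluster of miRNA genes, of which 40 were measured; they were chosen after their values were seen. As deposited 0 were higher and 13 lower at E19.5 (6 lower after centring), with a median difference of -0.45. In the B6 step 5 were higher and 3 lower, with a median of 0.17, and the A/J step was more positive for 2 and more negative for 12. Replicate 3 of A/J E18.5 had the highest value of the 3 E18.5 litters in 37 of the 40, and without it the median was -0.19 and 1 was called lower. Without replicate 3 of A/J E19.5 6 were called lower, and without replicate 2 of A/J E18.5 20.

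Genes of the circadian clock had 0 of 15 higher and 1 lower in the A/J step (1 and 0 after centring), and 7 higher and 0 lower in the B6 step. The A/J step was more negative for 5 of them as deposited and for 2 after centring. Over all 21789 probe sets the B6 step had 2774 higher and 2392 lower, and the A/J step 993 higher (4.56%) and 5172 lower (23.7%). Of 26 immediate early genes 0 were higher and 4 lower in A/J (0 and 1 after centring; as deposited 1 to 3 lower with any 1 of the 6 arrays left out), and 6 were higher and 2 lower in B6.

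Among 13 globin and erythroid genes 0 were higher and 2 lower (3 and 1 after centring). The transferrin receptor Tfrc, which takes up iron, fell by 0.76, with 8.31, 8.66 and 8.45 at E19.5 and 9.05, 9.60 and 9.05 at E18.5.

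Of the marker lists of other tissues, 1 of 11 heart genes and 1 of 7 lymphatic genes were higher and 0 lower (2 and 0 in each after centring), and of 8 mesothelium and neuroendocrine genes 0 were higher and 2 lower (1 and 1 after centring). The medians of the skeletal muscle, thymus and brown fat lists were -0.04, -0.04 and 0.08.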
